A study of Homo sapiens with 8 samples.

Results

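Genes of glycolysis and of the hypoxia response were followed by their mRNA in human T-cell acute lymphoblastic leukaemia cells given ACBI-1. The 43 listed genes were glycolytic enzymes, transporters of glucose and lactate, enzyme regulators and targets of the transcription factor HIF1A. Each was sought by its symbol in the deposited tables. Of these 43 genes, 42 were found among 63677 genes in all; MXI1-AS was not found. The genes comprised 25 glycolytic genes (4 transporters, 17 enzymes and 4 enzyme regulators), 2 HIF alpha subunits, and 15 of the 16 listed HIF targets outside glycolysis. Of the 42 genes, 39 passed the filter on low counts, and CA9, P4HA2 and ADM did not.

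Cells of the established leukaemia lines DND-41 and MOLT-4 had received ACBI-1 at 100 nM, or only its solvent DMSO, for 24 h. Each of these 4 groups held 2 libraries of total RNA, 8 libraries in all. The labels do not say whether the libraries of a group came from separate cultures, so p-values measure only the spread between libraries, which may be technical. Since RNA was taken from the whole culture, fewer cells of a type and less RNA per cell cannot be told apart.

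Glycolysis turns glucose into pyruvate through a chain of cytosolic enzymes, and leukaemic T cells take up glucose and release lactate through membrane carriers. HIF is a dimer of an oxygen-labile alpha subunit, HIF1A or EPAS1, with ARNT; when oxygen is plentiful, EGLN enzymes hydroxylate the alpha subunit and the ubiquitin ligase VHL marks it for destruction, and when oxygen is scarce HIF binds DNA at short motifs and activates glycolytic and other target genes. ACBI-1 is a degrader that joins the bromodomain proteins SMARCA2, SMARCA4 and PBRM1 to VHL, the same ligase, which is why glycolytic genes are set here against HIF targets outside glycolysis.

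The core of the HIF motif is ACGTG or GCGTG, and CACGTG, which contains ACGTG, is the E-box read by MYC, MLX and BHLHE40 among others. The stretches below lie before annotated start sites and hold such letters; they were chosen from genes that passed the MOLT-4 test in either direction. Capitals mark ACGTG on the printed strand, or CACGT where it lies on the other strand, and CACGTG where both coincide. The sequences are from RefSeq on GRCh38.p14, printed on the strand of the gene. HK2 lies on the plus strand at chr2:74834964-74835038, GAPDH on the plus strand at chr12:6535171-6535200, PGK1 on the plus strand at chrX:78104034-78104081, PFKFB3 on the plus strand at chr10:6202812-6202841 and SLC16A3 on the plus strand at chr17:82228962-82229003. DDIT4 lies on the plus strand at chr10:72273787-72273815, BNIP3 on the minus strand at chr10:131982040-131982069, and EGLN1 on the minus strand at chr1:231422288-231422312, where an exon of another transcript or gene is also annotated.
HK2: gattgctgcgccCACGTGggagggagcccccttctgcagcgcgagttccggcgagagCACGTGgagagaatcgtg
GAPDH: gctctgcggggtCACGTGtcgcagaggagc
PGK1: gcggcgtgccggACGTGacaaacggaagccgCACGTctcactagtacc
PFKFB3: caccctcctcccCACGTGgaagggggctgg
SLC16A3: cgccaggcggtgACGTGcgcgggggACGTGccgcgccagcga
DDIT4: agaacgttgcttACGTGcgcccggagtcc
BNIP3: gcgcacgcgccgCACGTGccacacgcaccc
EGLN1: gggccgtggtgtACGTGcagagcgc
The first 6 of these genes had less mRNA in MOLT-4 cells with ACBI-1 and the last 2 had more. The stretches were chosen for holding these letters and from both directions, so they cannot show how letters relate to direction.

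RefSeq start sites were held for 37 of the genes. Searched on both strands over the 250 bases before a start, ACGTG was present at 26 of 65 start sites (40%), against 18.5% of 35116 start sites of all genes. It was present at 18 of 49 start sites of glycolytic genes and at 8 of 13 start sites of HIF targets outside glycolysis. CACGTG was present at 9 of the 65 (13.8%, against 6.34% of all), and GCGTG at 23 (35.4%, against 32.2% of all). Start sites of 1 gene overlap, so they are not independent. Counted per gene, ACGTG was present before at least 1 start of 4 of the 6 genes that rose in MOLT-4 and 15 of the 23 that fell and had an entry. It was also present for 3 of the 5 that did not pass, and no such share per gene was taken over all genes. A match says only that these letters are there.

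The libraries were of like depth, with 21308737 to 22067644 counts each. The listed enzymes held 1.24% and 1.26% of all counts in the MOLT-4 DMSO libraries and 0.908% and 0.912% in the MOLT-4 ACBI-1 libraries. The summed level of 9 T-cell leukaemia markers was 2262 to 3534 CPM (counts scaled to the size of the library), and none was at 0 in all libraries. TLX3 was at 0 in every MOLT-4 library, and TAL1 was at most 0.339 CPM in DND-41. Of 4 stroma markers, the sum was 29.1 CPM in MOLT-4 ACBI-1 replicate 2 and 0.595 to 1.74 CPM in the other MOLT-4 libraries. Without that library EGLN3, NDRG1 and PDK3 lost their calls in the MOLT-4 comparison below, and every other called gene of the list kept its call. Of 5 B-cell markers, the sum was 178 to 739 CPM in DND-41 and at most 5.41 CPM in MOLT-4, with MS4A1 at 0 in every library. It was 5.30 and 5.41 CPM with DMSO and 0.837 and 0.785 CPM with ACBI-1 in MOLT-4, and 692 and 739 CPM against 178 and 209 CPM in the DND-41 libraries with number 1 and number 2. Of 8 T-cell leukaemia markers tested in MOLT-4, 5 fell and 2 rose with ACBI-1 (edgeR), against 30.2% and 28.2% of all genes. CD7 was at 142 and 135 CPM with DMSO and 24.5 and 20.2 CPM with ACBI-1. CD3G went the other way, from 276 and 286 CPM to 448 and 426 CPM. The part of these markers in the results was not tested.

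The DND-41 libraries went together by their replicate number and not by their labelled treatment. Enzymes held 1.22% and 1.29% of counts in the libraries with number 1 (ACBI-1, then DMSO), and 0.632% and 0.686% in those with number 2. The log2 fold changes of the authors' deposited DND-41 table equalled number 2 over number 1 within 0.001 for 41 of 41 genes of the list, and the labelled ACBI-1 over DMSO for 0 of 41. In the authors' deposited MOLT-4 table, the labelled ACBI-1 over DMSO matched for 41 of 41 genes of the list. DND-41 is therefore reported as labelled and, separately, as deposited, and which DND-41 libraries received ACBI-1 cannot be told from the sources used here. MOLT-4 results rest on MOLT-4 libraries alone.

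Per kb of exon, GAPDH was the most abundant of the genes in untreated MOLT-4 cells, at 1428 and 1417 CPM per kb in the 2 DMSO libraries. ENO1 followed at 357 and 366 CPM per kb, then LDHB at 336 and 345, ALDOA at 303 and 308, TPI1 at 266 and 268, LDHA at 226 and 227, PGK1 at 163 and 165, and PKM at 80.0 and 81.7. The libraries of neighbouring genes did not overlap over these 8 places. The order depends on the length used, which was all annotated exon bases of a gene (6.21 kb for LDHA, 2.98 kb for LDHB). Without it, LDHA lay above LDHB, at 1402 and 1412 against 1003 and 1029 CPM. Further down, HK2 (16.5 and 16.2 CPM per kb) and PFKM (16.3 and 16.2) did overlap. Both alpha subunits were measured, HIF1A at 28.7 and 27.2 CPM per kb and EPAS1 at 0.563 and 0.517. The lowest tested gene was VEGFA, the vascular growth factor, at 0.0858 and 0.120 CPM per kb. CA9, a carbonic anhydrase often used as a marker of HIF activity, had no count in any library; 3 counts, the limit that a count of 0 allows, would be 0.136 to 0.141 CPM on the unscaled totals. P4HA2 and ADM had at most 2 counts in any library.

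In MOLT-4 cells, the mRNA of most listed glycolytic genes fell with ACBI-1. Of the 39 genes tested, 27 fell, 6 rose and 6 did not pass (edgeR, adjusted over all genes tested); among all 14618 genes tested, 30.2% fell and 28.2% rose. These calls rest on the spread between the MOLT-4 libraries: in a fit of all 8 libraries with a common spread, 1 of the 39 genes passed, SLC2A3 (edgeR adjusted p = 0.00911), against 3.39% of all genes. That spread includes DND-41 groups whose labelled replicates lay far apart, such as GAPDH at 3756 and 1756 CPM with ACBI-1. All 4 transporters and 14 of the 17 enzymes fell. The 8 most abundant enzyme genes per kb did not all move alike: GAPDH, ENO1, ALDOA, TPI1 and PGK1 had log2 fold changes between -0.74 and -0.67, LDHA had -0.59, PKM -0.23 and LDHB, which did not pass, -0.03. The HIF targets outside glycolysis moved in both directions, 3 higher and 7 lower of 12. The median log2 fold change was -0.46 over the 25 glycolytic genes, -0.19 over the 12 others and 0.01 over all genes.

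**Figure D1:**
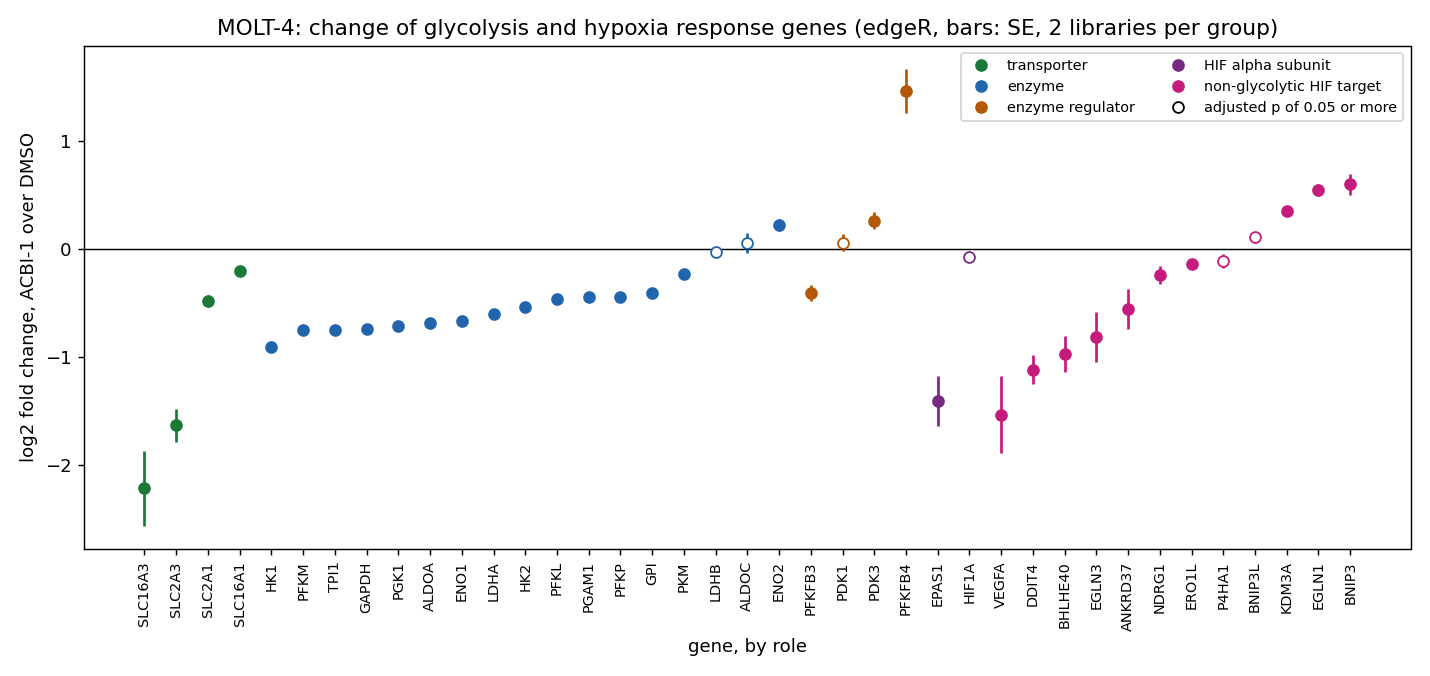
Log2 fold change of each of 39 genes in MOLT-4 cells, ACBI-1 over DMSO (vertical axis), with the genes ordered by role on the horizontal axis; points are edgeR estimates from 2 libraries per group, bars are standard errors and open points did not pass. The 4 transporters lie below 0, as do all filled enzyme points other than ENO2, while PFKFB4 stands highest at 1.47.

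Among the transporters, SLC16A3 (MCT4, which exports lactate) was measured at 2.14 and 1.61 CPM in the MOLT-4 DMSO libraries and at 0.401 and 0.399 CPM in the ACBI-1 libraries. Its log2 change was -2.21 (SE 0.347, adjusted p = 5.44e-07 in edgeR), from 45 and 34 counts against 9 and 9. Both treated libraries lay far below both controls, at low counts throughout. Reads of CSNK1D, on the opposite strand and sharing 482 exon bases with SLC16A3, held 16280% of the SLC16A3 counts in MOLT-4; the strand setting of the counting is not given in the sources used here, and its part in the result was not tested. SLC2A3 (GLUT3, a high-affinity glucose carrier) was at 8.22 and 8.45 CPM with DMSO and 2.90 and 2.48 CPM with ACBI-1, a log2 change of -1.63 (SE 0.153; adjusted p = 1.8e-12, edgeR). SLC2A1 (GLUT1, the main glucose carrier of dividing T cells) went from 64.9 and 62.4 CPM to 46.1 and 45.4 CPM, a log2 change of -0.48 (SE 0.0531; adjusted p = 2.02e-10, edgeR). SLC16A1 (MCT1, a carrier of lactate in both directions) fell least, from 238 and 224 CPM to 200 and 201 CPM, by 0.20 on the log2 scale (SE 0.0378, adjusted p = 1.12e-05 in edgeR). In none of the 4 did treated and control libraries overlap. All 4 had already been called lower, and with 2 libraries against 2 such a separation carries no test of its own, here or below.

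The first steps of the pathway trap and rearrange glucose. HK1, the broadly expressed hexokinase, was at 91.1 and 87.8 CPM with DMSO and 47.2 and 48.4 CPM with ACBI-1, the largest fall among the enzymes (log2 fold change -0.90, SE 0.0498, adjusted p = 7.65e-20 in edgeR). HK2, the inducible hexokinase with 2 E-boxes in the stretch printed above, went from 95.7 and 93.7 CPM to 65.4 and 65.4 CPM (log2 fold change -0.53, SE 0.0465). GPI, which converts glucose 6-phosphate to fructose 6-phosphate, went from 546 and 542 CPM to 413 and 409 CPM (log2 fold change -0.41, SE 0.0344). All 3 genes of phosphofructokinase, the committed step, fell: PFKM by 0.75, PFKL by 0.46 and PFKP by 0.44 on the log2 scale. PFKM shares exon bases with SENP1 on the opposite strand, which held 120% of its counts in MOLT-4.

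The enzymes that split the sugar and yield ATP include the most abundant genes of the list. ALDOA, the main aldolase, went from 1139 and 1154 CPM to 730 and 702 CPM. TPI1, which interconverts the triose phosphates, went from 688 and 693 CPM to 424 and 401 CPM. GAPDH, the oxidising step and a common reference gene, went from 4081 and 4039 CPM to 2472 and 2409 CPM. These 3 genes had log2 fold changes of -0.68 (SE 0.0348), -0.74 (SE 0.0355) and -0.73 (SE 0.036), and each treated library lay below each control. PGK1, the first ATP-yielding enzyme, went from 863 and 867 CPM to 521 and 534 CPM (log2 fold change -0.71, SE 0.0345). ENO1, the main enolase, went from 1806 and 1847 CPM to 1147 and 1153 CPM (log2 fold change -0.67, SE 0.0347). PGAM1, the mutase between them, fell by 0.44 on the log2 scale, and PKM, pyruvate kinase, by only 0.23, from 657 and 670 CPM to 574 and 557 CPM. For the genes in this paragraph, the edgeR adjusted p lay between 5.09e-22 (TPI1) and 2.08e-07 (PKM). Pseudogenes named after a gene of the list held at most 0.614% of its counts, the highest share being for PGAM1.

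Not every enzyme gene fell. LDHA, which turns pyruvate into lactate, went from 1344 and 1349 CPM to 873 and 911 CPM (log2 fold change -0.59, SE 0.0349, adjusted p = 6.3e-19 in edgeR), while its partner LDHB was at 962 and 983 CPM with DMSO and 937 and 970 CPM with ACBI-1, an overlap of the groups (log2 fold change -0.03, SE 0.0346, adjusted p = 0.491 in edgeR). ALDOC, the minor aldolase, was at 15.0 and 12.5 CPM with DMSO and 14.6 and 14.0 CPM with ACBI-1 and did not pass (edgeR adjusted p = 0.62). ENO2, the enolase best known from neurons, rose from 53.5 and 51.3 CPM to 61.9 and 60.6 CPM (log2 fold change 0.23, SE 0.0523, adjusted p = 0.000278 in edgeR).

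The make-up of several enzyme pairs therefore differed between the treated and control MOLT-4 libraries. Per kb of exon, LDHA was 40.2% and 39.7% of LDHA plus LDHB with DMSO and 30.9% and 31.1% with ACBI-1. ENO1 was 96.5% and 96.7% of ENO1 plus ENO2 with DMSO and 93.8% and 93.9% with ACBI-1. HK1 was 47.8% and 47.5% of HK1 plus HK2 with DMSO and 41.0% and 41.6% with ACBI-1. Each of these first-named genes took a smaller share in both treated libraries. How large a share is depends on the annotated exon lengths, which are the same for treated and control libraries. The opposite held for PFKL over PFKM (52.5% and 52.4%, then 58.1% and 56.7%) and for SLC2A1 over SLC2A3 (91.1% and 90.6%, then 95.4% and 96.0%). With 2 libraries against 2, an exact permutation test of a share cannot go below p = 0.333, so the shares carry no test of their own.

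**Figure D2:**
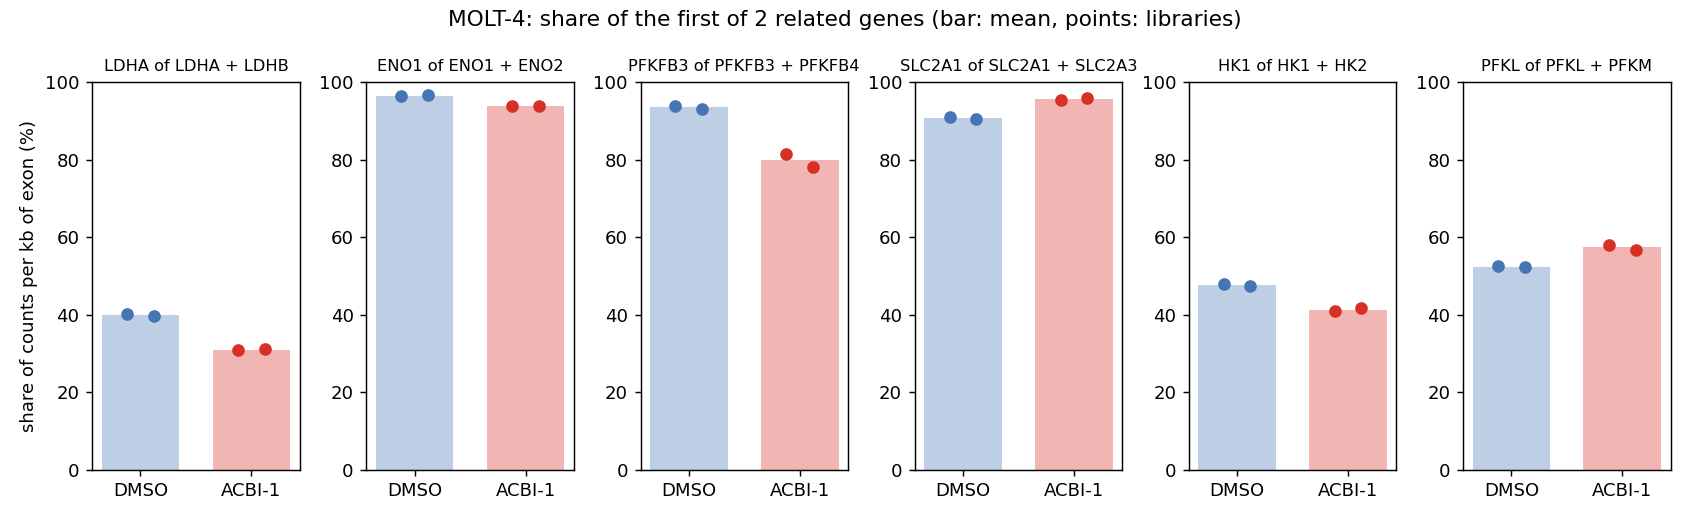
Share of the first-named of 2 related genes in their summed counts per kb of exon (vertical axis, %), for MOLT-4 libraries with DMSO and with ACBI-1; bars are means and points are the 2 libraries of a group. The share of PFKFB3 falls from 93.8% and 93.2% to 81.6% and 78.1%, the widest gap of the 6 pairs.

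The enzyme regulators set the pace of the pathway. PFKFB4, which makes and removes fructose 2,6-bisphosphate, the activator of phosphofructokinase, rose from 1.57 and 1.71 CPM to 3.92 and 5.14 CPM (log2 fold change 1.47, SE 0.206, adjusted p = 5.71e-08 in edgeR), from 33 and 36 counts to 88 and 116. PFKFB3, the family member with the strongest kinase activity, fell from 23.7 and 23.6 CPM to 17.4 and 18.3 CPM (log2 fold change -0.40, SE 0.0765, adjusted p = 1.52e-05 in edgeR). The 2 genes thus moved in opposite directions, and PFKFB3 remained the more abundant per kb. Of the kinases that shut pyruvate dehydrogenase, PDK3 was at 17.3 and 17.9 CPM with DMSO and 20.3 and 21.9 CPM with ACBI-1 (log2 fold change 0.26, SE 0.0795, adjusted p = 0.00438 in edgeR), while PDK1 did not pass, at 19.6 and 19.9, then 20.1 and 21.2 CPM (edgeR adjusted p = 0.509). The PDK3 call was lost without ACBI-1 replicate 2 and without DMSO replicate 1.

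Of the HIF alpha subunits, HIF1A mRNA did not pass, at 142 and 134 CPM with DMSO and 129 and 134 CPM with ACBI-1 (log2 fold change -0.07, SE 0.0414, adjusted p = 0.156 in edgeR). EPAS1 (HIF2 alpha), much lower, fell from 3.94 and 3.61 CPM to 1.03 and 1.82 CPM (log2 fold change -1.40, SE 0.229, adjusted p = 1.16e-06 in edgeR). These are mRNA levels; HIF alpha is set mainly at the protein, which was not measured.

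HIF targets outside glycolysis split. VEGFA fell from 1.19 and 1.66 CPM to 0.401 and 0.576 CPM (log2 fold change -1.53, SE 0.357, adjusted p = 0.000289 in edgeR), from 25 and 35 counts to 9 and 13. DDIT4 (REDD1, an inhibitor of mTORC1) fell from 9.36 and 8.78 CPM to 3.92 and 4.43 CPM (log2 fold change -1.12, SE 0.134, adjusted p = 1.44e-09 in edgeR). BHLHE40, a transcriptional repressor that binds E-boxes, fell from 6.32 and 5.36 CPM to 3.12 and 2.84 CPM (log2 fold change -0.97, SE 0.164, adjusted p = 2.19e-06 in edgeR). All 3 were low in MOLT-4 to begin with. EGLN3, an oxygen-sensing hydroxylase, fell from 2.52 and 3.28 CPM to 1.87 and 1.42 CPM. ANKRD37, an ankyrin-repeat protein, fell from 3.99 and 3.85 CPM to 2.59 and 2.75 CPM; UFSP2 on the opposite strand held 618% of its counts in MOLT-4. NDRG1, a stress-induced gene, fell from 18.3 and 17.7 CPM to 15.7 and 14.9 CPM, and ERO1L, an oxidase of the endoplasmic reticulum, from 107 and 107 CPM to 97.2 and 97.3 CPM. For these 4 the calls were less firm: edgeR adjusted p = 0.00243 for EGLN3, 0.00882 for ANKRD37, 0.0158 for NDRG1 and 0.00484 for ERO1L, and each was lost without at least 1 of the 4 libraries. Without ACBI-1 replicate 1, ANKRD37 and NDRG1 did not pass; without ACBI-1 replicate 2, EGLN3 and NDRG1 did not; without DMSO replicate 1, ERO1L and NDRG1 did not; without DMSO replicate 2, EGLN3 and ERO1L did not.

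Against these 7, 3 targets rose. EGLN1 (PHD2, the main hydroxylase that marks HIF alpha for VHL) rose from 41.8 and 39.6 CPM to 56.9 and 62.0 CPM (log2 fold change 0.55, SE 0.0569, adjusted p = 3.52e-11 in edgeR). BNIP3, a mitophagy receptor, rose from 10.5 and 10.8 CPM to 16.6 and 15.7 CPM (log2 fold change 0.60, SE 0.0942, adjusted p = 5.27e-07 in edgeR). KDM3A, a histone demethylase, rose from 61.0 and 61.4 CPM to 77.6 and 79.0 CPM (log2 fold change 0.35, SE 0.0484, adjusted p = 2.93e-08 in edgeR). For each of the 3, both treated libraries lay above both controls. BNIP3L, the relative of BNIP3, was at 57.7 and 58.6 CPM and then 61.8 and 63.7 CPM but did not pass (edgeR adjusted p = 0.0631), and PNMA2 on the opposite strand held 64.5% of its counts in MOLT-4. P4HA1, a collagen prolyl hydroxylase, did not pass (29.8 and 29.6 CPM, then 27.0 and 28.0 CPM; edgeR adjusted p = 0.154).

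The median of the glycolytic genes lay below that of the HIF targets outside glycolysis by 0.28 on the log2 scale. Across the refits that each left out 1 library, this difference ran from -0.30 to -0.26. Both classes were spread widely: the log2 fold changes of the glycolytic genes ran from -2.21 (SLC16A3) to 1.47 (PFKFB4), and those of the other targets from -1.53 (VEGFA) to 0.60 (BNIP3). Over all 17 enzymes they ran from -0.90 (HK1) to 0.23 (ENO2). The medians describe the genes that passed the filter and carry no test.

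Of the 33 genes called in MOLT-4, 29 also passed with the same sign in the authors' deposited MOLT-4 table, and PDK3, EGLN3, ANKRD37 and NDRG1 did not. That table is DESeq2 on the same MOLT-4 libraries, so the shared signs are not a second measurement. ERO1L and NDRG1 did not pass with total-count scaling, nor EGLN3 and PDK3 without a filter on low counts. Tested against a change of 1.5-fold, PFKFB4 was higher and 13 genes were lower, against 6.13% higher and 5.75% lower among all genes. The 13 were SLC16A3, SLC2A3, HK1, PFKM, TPI1, GAPDH, PGK1, ALDOA, ENO1, EPAS1, VEGFA, DDIT4 and BHLHE40. Scaling by total counts moved the median of all genes up by 0.12 on the log2 scale, turning the sign of LDHB (0.090), HIF1A (0.051) and P4HA1 (0.0090), and LDHB, BNIP3L and PDK1 then passed as higher. BNIP3L also passed with a filter of 1 CPM in 2 libraries.

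Other genes around the pathway were read from companion lists. Among all genes tested in MOLT-4, 30.2% fell and 28.2% rose, which is the share to set beside each count. Of 12 further glycolysis genes tested, 5 rose and 4 fell: SLC2A6, another hexose carrier, fell from 15.2 and 16.9 CPM to 7.22 and 7.75 CPM, PFKFB2 rose from 16.1 and 14.1 CPM to 26.3 and 24.5 CPM, and BSG, the chaperone of the lactate carriers, fell from 324 and 323 CPM to 279 and 273 CPM. Of the PFKFB genes, then, PFKFB2 and PFKFB4 rose and PFKFB3 fell. The median log2 fold change of the 12 further glycolysis genes was 0.21, against -0.46 for the 25 listed glycolytic genes. Of 7 genes of the pentose phosphate pathway, which branches off at glucose 6-phosphate, 6 fell and none rose, with PGD at -0.62 (SE 0.0359), TKT at -0.51 (SE 0.0345) and RPIA at -0.39 (SE 0.0492). Of 12 genes for the entry of pyruvate into mitochondria, 6 fell and 2 rose; MPC1, a subunit of the pyruvate carrier, fell by 0.86 (SE 0.0626) and PDHA1, of pyruvate dehydrogenase, by 0.48 (SE 0.0439), while the kinase PDK2 rose (0.67, SE 0.0656), all on the log2 scale.

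Of 19 further HIF targets tested, 6 rose and 5 fell, with CXCR4, a chemokine receptor, at -1.79 (SE 0.0387), TFRC, the transferrin receptor, at -1.19 (SE 0.036), and KDM5B, a histone demethylase, at 0.68 (SE 0.051). The median log2 fold change of the 19 was -0.02. Their shares higher and lower lay near those of all genes tested (28.2% and 30.2%), and the 3 genes named are those with the smallest adjusted p. Of 10 genes of oxygen sensing and of HIF itself, 5 rose and 3 fell, and ARNT, the partner of HIF alpha, rose from 48.2 and 50.7 CPM to 76.6 and 80.0 CPM (log2 fold change 0.66, SE 0.0513). CREBBP, a coactivator, rose by 0.41 (SE 0.0449) and EGLN2 by 0.46 (SE 0.083) on the log2 scale. Of 4 genes of the glucose sensor MondoA, MLX fell (-0.55, SE 0.0459), MLXIP fell (-0.39, SE 0.0436) and TXNIP rose (0.12, SE 0.05); the TXNIP call was lost without any of 3 of the 4 libraries (all but DMSO replicate 1). The edgeR adjusted p of the other genes named from these lists lay under that of TXNIP (0.0325).

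The proteins that ACBI-1 targets are degraded after translation, so their mRNA does not check the labels. In MOLT-4, SMARCA2 did not pass (log2 fold change -0.06, edgeR adjusted p = 0.439), and SMARCA4 (0.26), PBRM1 (0.11) and the ligase VHL (0.16, edgeR adjusted p = 0.00221) rose slightly; the VHL call was lost without DMSO replicate 1, and that of PBRM1 without either DMSO library. MYC, a transcription factor of many glycolytic genes, fell from 526 and 511 CPM to 323 and 315 CPM (log2 fold change -0.70, SE 0.0352, adjusted p = 3.16e-21 in edgeR). Its part in the glycolytic result was not tested.

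In DND-41 as labelled, no gene of the list passed. Of 39 genes tested, 0 passed in edgeR and 0 in DESeq2, and among all 14602 genes 0% passed in edgeR and 0 in DESeq2. An unadjusted edgeR p under 0.05 was found for 0 of the 39, against 0.253% of all genes. The log2 fold changes ran from -0.18 (EGLN3) to 0.10 (KDM3A), with standard errors of 0.122 to 0.803. GAPDH was at 3756 and 1756 CPM in ACBI-1 replicates 1 and 2 and at 4174 and 1987 CPM in DMSO replicates 1 and 2. HK2 was at 124 and 40.7 CPM with ACBI-1 and 113 and 43.7 CPM with DMSO, and NDRG1 at 33.7 and 83.1 CPM with ACBI-1 and 32.0 and 79.1 CPM with DMSO. In these 3 genes the libraries with the same number were close and the labelled replicates far apart. A fit with a replicate block is given at the end.

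**Figure D3:**
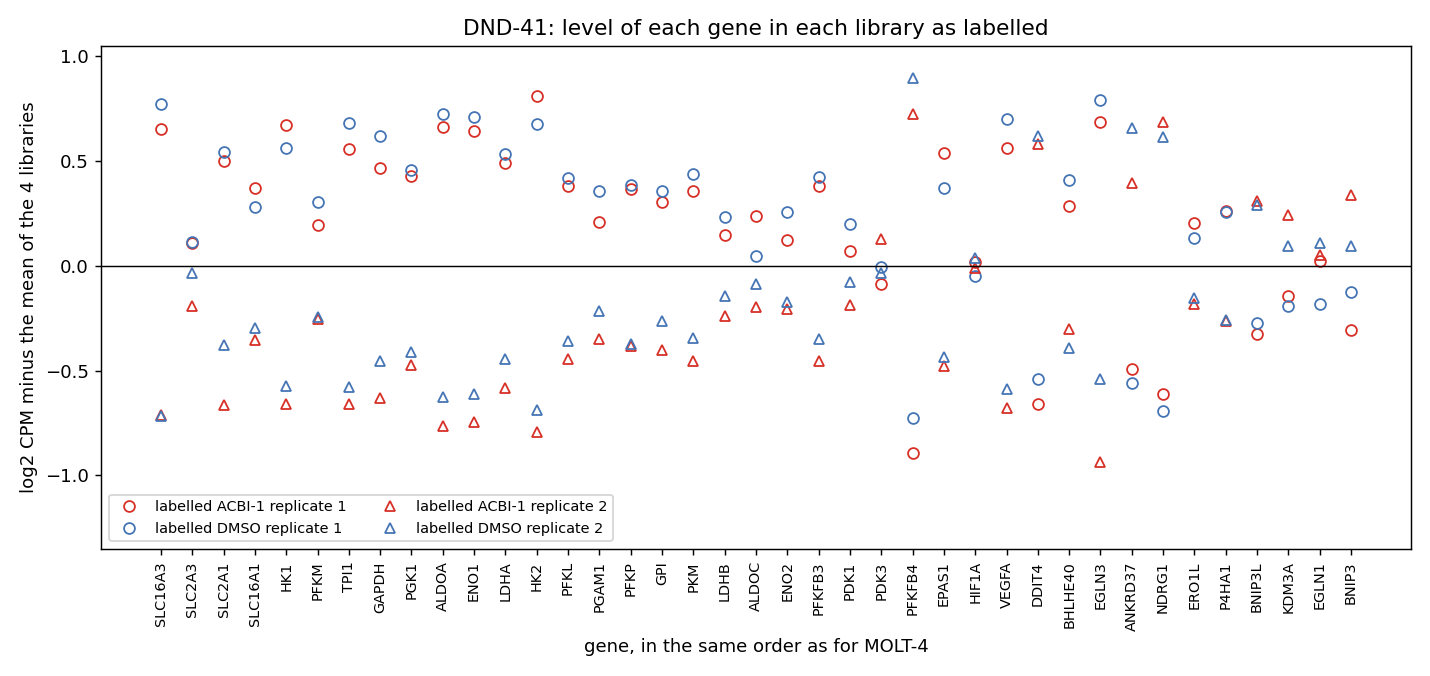
Level of each of 39 genes in the 4 DND-41 libraries (vertical axis, log2 CPM minus the mean of the 4 libraries), with genes in the order of the MOLT-4 plot; colour gives the labelled treatment and shape the replicate number. For most genes the circles (number 1) lie on one side and the triangles (number 2) on the other, whatever the labelled treatment.

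The authors' deposited DND-41 table gives number 2 over number 1. In it, 26 of the 39 genes were lower, 5 were higher and 8 did not pass (DESeq2, as deposited), against 21.6% lower and 15.2% higher among all genes with an adjusted p. Of the 25 glycolytic genes, 20 were lower and 1 was higher in the authors' deposited table, with a median log2 fold change of -0.83. HK2 (-1.52), ALDOA (-1.42), ENO1 (-1.38), TPI1 (-1.27) and HK1 (-1.26) had large negative values there, and PFKFB4 was the 1 glycolytic gene that was higher (1.59, SE 0.348, DESeq2 adjusted p = 3.15e-05 in the authors' deposited table). Among the 12 HIF targets outside glycolysis, 4 were higher and 5 lower in the authors' deposited table, and their median was 0.21. NDRG1 (1.27), DDIT4 (1.17), BNIP3L (0.57) and KDM3A (0.30) were the 4 that were higher; EGLN3 (-1.50), VEGFA (-1.30), BHLHE40 (-0.73), P4HA1 (-0.55) and ERO1L (-0.37) were the 5 that were lower. If the direction of that table were turned, each of these signs would turn with it.

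The lines were set side by side in the authors' deposited tables. Signs were the same for 22 of 25 glycolytic genes and 9 of 12 HIF targets outside glycolysis, and for 75.5% of all 14053 genes with an adjusted p in both. Across genes, which are not independent replicates, the fold changes of the 2 lines had a Pearson correlation of 0.72 over the glycolytic genes, 0.35 over the other targets and 0.58 over all genes. These values rest on the direction of the DND-41 table: with its signs turned, the signs were the same for 3 of 25, 3 of 12 and 24.5% of all genes, and each correlation changed sign. As deposited, DDIT4 and NDRG1 had opposite signs: DDIT4 was -1.13 in the authors' deposited MOLT-4 table and 1.17 in that of DND-41, and NDRG1 was -0.25 and 1.27.

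**Figure D4:**
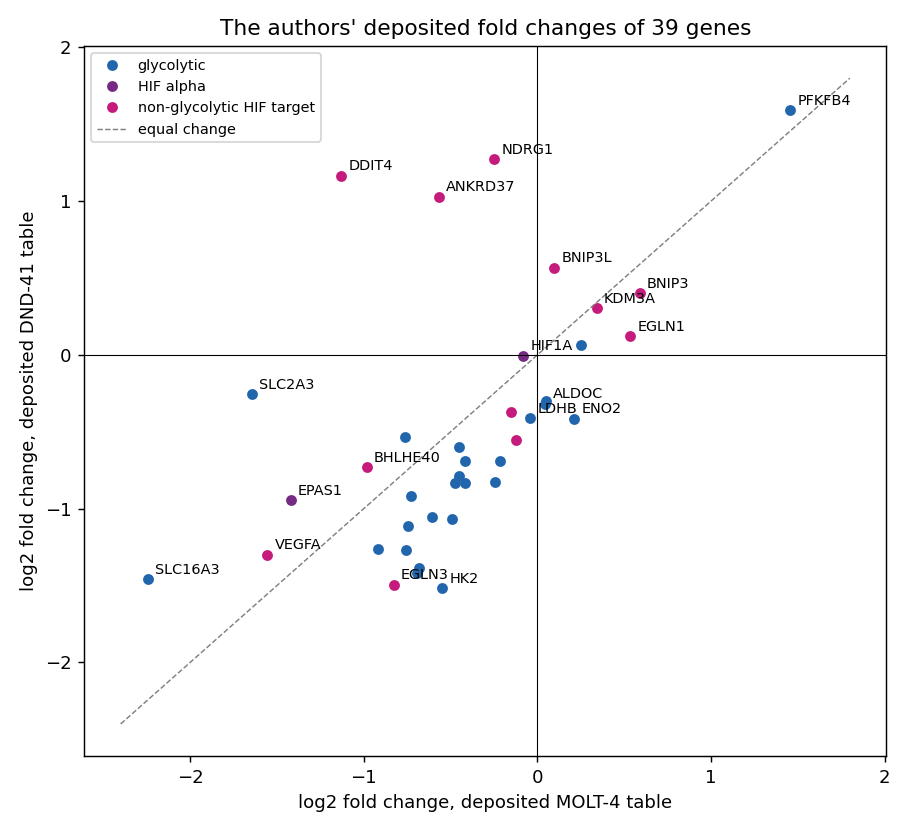
Log2 fold changes of 39 genes in the authors' deposited MOLT-4 table (horizontal axis) and DND-41 table (vertical axis, number 2 over number 1); each point is a gene, coloured by class, and the dashed line marks equal values. Most glycolytic genes lie in the lower left below the line, and DDIT4, NDRG1 and ANKRD37 lie in the upper left.

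A z test of the difference between the authors' deposited tables passed for 19 of the 39 genes, against 12.5% of all genes, namely 16 of the 25 glycolytic genes and 3 of the 12 others. For 15 of the 16 the MOLT-4 value was less negative (for ENO2, positive), as for HK2 (difference 0.97, SE 0.126) and ALDOA (0.73, SE 0.0862); SLC2A3 was the exception (-1.39, SE 0.295). The 3 others, DDIT4 (-2.30, SE 0.272), NDRG1 (-1.52, SE 0.182) and BNIP3L (-0.47, SE 0.132), were lower in MOLT-4. With the signs of the DND-41 table turned, 31 of the 39 passed, against 48% of all genes. The test of line by treatment on the labelled libraries passed for 0 of the 39 genes in edgeR, against 0.393% of all genes. Unadjusted p was under 0.05 for 2 of the 39, SLC2A3 and EGLN1, against 10.0% of all genes. Of the 39, DESeq2 passed SLC2A3 alone, and it passed 389 genes in all. The spread in this test includes labelled DND-41 replicates that lay far apart. A fit with a replicate block, given at the end, called more genes.

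Between the lines in DMSO as labelled, 7 of the 39 genes were higher in MOLT-4 and 8 were higher in DND-41 (edgeR), against 20.1% and 19.4% of all genes. BNIP3 was at 10.9 and 11.3 CPM in MOLT-4 and 0.843 and 0.982 CPM in DND-41 (log2 difference 3.60, SE 0.233, adjusted p = 0.000101 in edgeR). ALDOC (2.11, SE 0.208) and PFKM (1.62, SE 0.222) were likewise higher in MOLT-4, and GPI, ANKRD37, LDHB and HIF1A passed as well. VEGFA was at 1.24 and 1.74 CPM in MOLT-4 and 45.5 and 18.6 CPM in DND-41 (log2 difference -4.42, SE 0.643, adjusted p = 0.0026 in edgeR). BHLHE40 (-2.78, SE 0.333) and SLC2A3 (-1.94, SE 0.161) were also lower in MOLT-4, with SLC16A3, EGLN3, DDIT4, ENO2 and KDM3A. A fit without either MOLT-4 DMSO library leaves 1 library in that group. In both such fits ANKRD37, DDIT4, EGLN3, ENO2, GPI, HIF1A, KDM3A, LDHB and SLC16A3 lost their calls. Their log2 differences then ran from -2.61 to 1.51 without replicate 1 and from -2.50 to 1.56 without replicate 2. The share of all genes that lost their calls is not given here, so the loss is not particular to these genes.

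These line differences did not depend on which DND-41 libraries were treated where all libraries separated. All 4 MOLT-4 libraries lay above all 4 DND-41 libraries for 10 of the 42 genes found and below for 10, against 25.5% and 23.8% of all genes tested. For VEGFA the MOLT-4 libraries ran from 0.419 to 1.74 CPM and the DND-41 libraries from 17.2 to 45.5 CPM. For BNIP3 the ranges were 10.9 to 17.3 CPM in MOLT-4 and 0.751 to 1.14 CPM in DND-41.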

How the data were processed

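The submitters' processing notes name STAR 2.5.2a, featureCounts, DESeq2 1.12.4 and the build hg19; the strand setting of the counting and the annotation release are not given in the sources used here. For each line the authors deposited a table of raw counts by Ensembl gene and a DESeq2 table. Its deposited columns are log2 fold changes with standard errors, a mean normalized signal, a Wald score, and p-values before and after adjustment. Per the file headers, MOLT-4 count columns end in "redo", which no source explains.

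Counts of each line were tested in R 4.3.3 by edgeR 4.0.16 (quasi-likelihood, TMM scaling, filterByExpr, 2-sided), adjusted by Benjamini and Hochberg over all genes tested, with a threshold of 0.05. The line by treatment and line tests used 1 fit of all 8 libraries. CPM are TMM-scaled within a line, or over all 8 libraries where lines or genes are compared. Exon lengths and overlaps came from GENCODE release 29, promoters from RefSeq (GRCh38.p14). A length counts every annotated exon base of a gene and can exceed that of its main mRNA. Every gene of the list was named by rule, with SMARCA2, SMARCA4, PBRM1, VHL and MYC, and up to 3 genes per companion list with the smallest MOLT-4 adjusted p. The genes and lists were chosen with earlier results of these data known. The use of the deposited DND-41 table and the z test (difference over the root of the summed squared standard errors) was chosen after seeing the data. Alternatives were DESeq2 1.42.0, total-count scaling, other filters, a shared spread, a test against 1.5-fold, a replicate block and leaving out each library. The steps were tested on simulated data. The limit for a count of 0 covers counting error only.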

Additional observations from a re-analysis of the deposited data

Results flagged for a closer look

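For 19 genes the log2 fold change differed between the authors' deposited MOLT-4 and DND-41 tables by the z test of the difference itself. The values are MOLT-4 minus DND-41 log2 fold changes. The DND-41 table compares libraries by number and not by labelled treatment. The values therefore hold for the tables as deposited, and whether they compare a change with ACBI-1 cannot be told. Among the transporters they were 0.58 for SLC2A1, 0.47 for SLC16A1 and -1.39 for SLC2A3. Early enzymes had 0.35 for HK1, 0.97 for HK2, 0.27 for GPI, 0.36 for PFKL and 0.34 for PFKP. Later enzymes had 0.73 for ALDOA, 0.51 for TPI1, 0.37 for GAPDH, 0.70 for ENO1, 0.63 for ENO2, 0.58 for PKM, 0.45 for LDHA and 0.37 for LDHB. Outside glycolysis they were -0.47 for BNIP3L, -2.30 for DDIT4 and -1.52 for NDRG1. With the signs of the DND-41 table turned, ENO2 and DDIT4 no longer passed.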

How the results depend on the processing

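With the spread shared over 8 libraries, 0 genes of the list were higher and 1 was lower in MOLT-4, and against 1.5-fold 1 was higher and 13 were lower. The glycolytic median was -0.34 with total-count scaling and -0.48 with no low-count filter, and ran from -0.48 to -0.45 when each library was left out. The median of the other targets was -0.068 with total-count scaling. Total-count scaling turned LDHB (0.090, edgeR adjusted p = 0.0184), HIF1A (0.051), P4HA1 (0.0090) and SMARCA2 (0.054). The cause of these moves was not tested. ALDOC ran from -0.072 to 0.19 over the fits that each left out 1 library. Between the lines in DMSO, 3 to 10 genes were higher and 3 to 8 lower when each library was left out. For line by treatment, 1 gene was lower with total-count scaling and 1 with DESeq2. The z test of the deposited tables passed for 31 genes of the list (48% of all genes) with the DND-41 signs turned, a repeat chosen after seeing the data.

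The labels do not say that a replicate number marks a shared batch, and a line has 2 pairs, so the replicate block is given only here. Same-numbered libraries deviated together in DND-41 (correlation 0.97 over 5000 genes) and not in MOLT-4 (0.021). With the replicate block, 2 genes, GAPDH and PGAM1, were lower in DND-41 as labelled (3.92% of all genes), and 4 were higher and 24 lower in the test of line by treatment (17.2% and 19.3% of all genes). In MOLT-4 the replicate block changed no call of the 39 genes (6 higher, 27 lower). Depth limits SLC16A3 (9 to 45 counts) and VEGFA (9 to 35) in MOLT-4, and BNIP3 (16 to 27) and ANKRD37 (18 to 46) in DND-41.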
